A study of Mus musculus with 16 samples.

Results

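The homeostatic astrocyte genes described here are 10 genes that mark the resting working state of astrocytes in the adult brain: Aqp4, Slc1a2, Slc1a3, Aldoc, Gja1, Gjb6, Kcnj10, Glul, Fgfr3 and Slc4a4. They were chosen by symbol, each symbol matched 1 of the 55385 genes in the deposited count table, and all 10 were among the 16684 genes with enough counts for a test. They were measured by polyA RNA sequencing of the hippocampus of 5-month-old mice of 4 genotypes, in 4 libraries each. The 5xFAD-Dp16 mice carry both of the following alterations, and all 4 were male. The 5xFAD mice carry human transgenes with familial Alzheimer disease mutations, APP among them, which the Thy1 promoter drives in neurons. The Dp16 mice model Down syndrome with an extra copy of a segment of mouse chromosome 16. The wild-type mice were C57BL/6J and carried neither. 5xFAD, Dp16 and wild-type had 2 males and 2 females each. Whether every library is a different mouse is not stated in the labels, and the p-values reflect the spread among libraries, part of which may be technical.

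Astrocytes clear glutamate from synapses with the transporters encoded by Slc1a2 (GLT-1) and Slc1a3 (GLAST), and glutamine synthetase, encoded by Glul, turns it into glutamine that neurons reuse. Potassium released by firing neurons enters astrocytes through the channel Kir4.1, encoded by Kcnj10, and spreads through gap junctions built of connexin 43 (Gja1) and connexin 30 (Gjb6). At their endfeet on blood vessels astrocytes carry the water channel aquaporin-4 (Aqp4), and Slc4a4 encodes the sodium bicarbonate cotransporter that ties their activity to pH. Aldoc encodes the brain form of the glycolytic enzyme aldolase, and Fgfr3 a receptor for fibroblast growth factors that mature astrocytes express.

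Genomic sequence upstream of 4 members is shown, because the results below turn on 2 pairs of genes: the connexins Gja1 and Gjb6, whose ratio is given by genotype, and the transporter Slc1a2 with the enzyme Aldoc, which had the lowest correlation of all pairs. RefSeq promoter windows (GRCm38.p6) were found for 9 of the 10 members. The sequence is taken from the 250 bases before the RefSeq start and is cut at the first base that falls in an annotated exon. It runs 5′ to 3′ on the gene's strand, in lower case. Capitals mark the core motif TTGGC, on either strand, of the NFI factors, transcription factors known for their part in astrocyte development. The windows shown are chr10:56377050-56377299 (+ strand) for Gja1, chr14:57133612-57133861 (- strand) for Gjb6, chr2:102706188-102706355 (+ strand) for Slc1a2 and chr11:78322823-78322967 (+ strand) for Aldoc.
Gja1: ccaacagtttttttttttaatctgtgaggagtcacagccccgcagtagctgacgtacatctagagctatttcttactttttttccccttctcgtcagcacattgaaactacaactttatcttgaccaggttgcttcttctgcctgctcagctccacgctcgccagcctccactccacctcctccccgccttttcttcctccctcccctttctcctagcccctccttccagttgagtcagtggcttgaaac
Gjb6: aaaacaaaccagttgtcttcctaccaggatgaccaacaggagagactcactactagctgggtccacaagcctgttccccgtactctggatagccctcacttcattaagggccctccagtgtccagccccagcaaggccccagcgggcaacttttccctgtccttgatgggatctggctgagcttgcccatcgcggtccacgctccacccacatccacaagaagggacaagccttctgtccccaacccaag
Slc1a2: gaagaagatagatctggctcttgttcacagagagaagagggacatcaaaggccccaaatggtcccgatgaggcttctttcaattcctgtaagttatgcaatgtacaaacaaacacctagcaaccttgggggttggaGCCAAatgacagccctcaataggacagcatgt
Aldoc: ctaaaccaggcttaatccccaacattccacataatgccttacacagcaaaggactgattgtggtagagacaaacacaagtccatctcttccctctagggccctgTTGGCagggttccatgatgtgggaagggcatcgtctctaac
The full 250-base windows of Slc1a2 and Aldoc held 1 NFI motif each and those of Gja1 and Gjb6 held none. Of all 32851 windows of that length, 41.5% held at least 1. None of these 4 windows held the SOX core ACAAAG (either strand), the STAT palindrome TTCNNNGAA or a TATA box (TATAAA, forward strand), which 16.5%, 7.02% and 7.59% of all windows held. Gja1 and Gjb6 had 6 and 5 CpG sites in their windows and Aldoc had 5, against a median of 6 over all windows, while Slc1a2 had 1. The RefSeq start that the Slc1a2 window precedes lies 47779 bases inside the gene's annotated span, so the window belongs to a start other than the outermost one. A match to letters of this kind is a description of the sequence and no evidence of binding.

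The members lie on 8 chromosomes and none on chromosome 16, so they lie outside the segment duplicated in Dp16. Slc1a2, Slc1a3, Gja1 and Gjb6 are on chromosomes 2, 15, 10 and 14, and Aqp4 and Aldoc are on chromosomes 18 and 11. Kcnj10 and Glul share chromosome 1, and Fgfr3 and Slc4a4 share chromosome 5. Genes that overlap a member in the annotation held few counts beside it. The highest share was that of G630022F23Rik, on the opposite strand of Fgfr3, with 1.47% of the Fgfr3 count.

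Of the whole data set, each library held 15.84 to 25.04 M (mega) counts in total. The genotypes were visible in the counts. Thy1, whose promoter drives the transgenes, averaged 2368 ± 536 CPM in 5xFAD-Dp16, 2133 ± 363 CPM in 5xFAD, 858 ± 65.2 CPM in Dp16 and 814 ± 70.2 CPM in wild-type (n = 4 each, with SD; CPM, counts scaled to the library total, with TMM factors). App, which lies in the segment duplicated in Dp16, stood at 2961 ± 269 CPM in 5xFAD-Dp16, 1827 ± 122 CPM in 5xFAD, 3139 ± 95.8 CPM in Dp16 and 2033 ± 236 CPM for wild-type. In 4 libraries the mean log2 level of a list of midbrain and hypothalamus genes or of a list of thalamus genes lay more than 1 above the median over libraries. These libraries were 5xFAD-Dp16 replicate 3, 5xFAD replicates 2 and 4, and wild-type replicate 4, and no Dp16 library was among them. The 16 midbrain and hypothalamus genes summed to between 20.8 and 405 CPM in the 4 libraries, against 7.57 to 14.1 CPM in the other 12, and each of the 16 had counts in at least 1 library. The 12 thalamus genes summed to 222 to 556 CPM in the 4 libraries, against 109 to 200 CPM in the other 12. The 6 CA1 genes ran the other way, at 379 to 505 CPM in the 4 libraries and 570 to 868 CPM in the other 12. These libraries are called the 4 extrahippocampal-marker libraries below, and results are given with and without them. Their grouping was made after the values were seen.

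The samples held astrocyte RNA throughout. All 30 other astrocyte identity genes of a list made for this purpose were tested, among them the transcription factor gene Sox9, at 38.7 to 74.9 CPM, and the folate enzyme gene Aldh1l1, at 55.6 to 74.6 CPM across the 16 libraries.

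On the scale that compares genes (RPKM, counts divided by the gene's length and the library's total), Glul was the highest of the 10 members, with a median of 639 RPKM over the 16 libraries. Aldoc (375 RPKM) and Slc1a2 (318 RPKM) followed, then Slc1a3 (201 RPKM) and Gja1 (89.2 RPKM). Below them were Kcnj10 (44.3 RPKM), Aqp4 (33.6 RPKM), Gjb6 (22.1 RPKM), Fgfr3 (20.8 RPKM) and Slc4a4 (19.4 RPKM). Most of this order held in every library: Glul exceeded Aldoc, Slc1a2 exceeded Slc1a3, Slc1a3 exceeded Gja1, Gja1 exceeded Kcnj10, Kcnj10 exceeded Aqp4 and Aqp4 exceeded Gjb6 in 16 of 16 libraries. In 3 places neighbours were not separated beyond their spread: Aldoc exceeded Slc1a2 in 11 of 16, Gjb6 exceeded Fgfr3 in 9 of 16 and Fgfr3 exceeded Slc4a4 in 12 of 16.

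The members also differed in how much they varied. Glul and Slc1a3 were the steadiest, with a highest library 1.22 and 1.31 times the lowest in CPM. Aqp4 varied most, 2.58-fold, followed by Slc1a2 with 2.08-fold and Gjb6 with 1.96-fold. 5xFAD replicate 2 was the highest library for Aqp4, Gja1, Gjb6, Kcnj10 and Slc4a4.

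**Figure D1:**
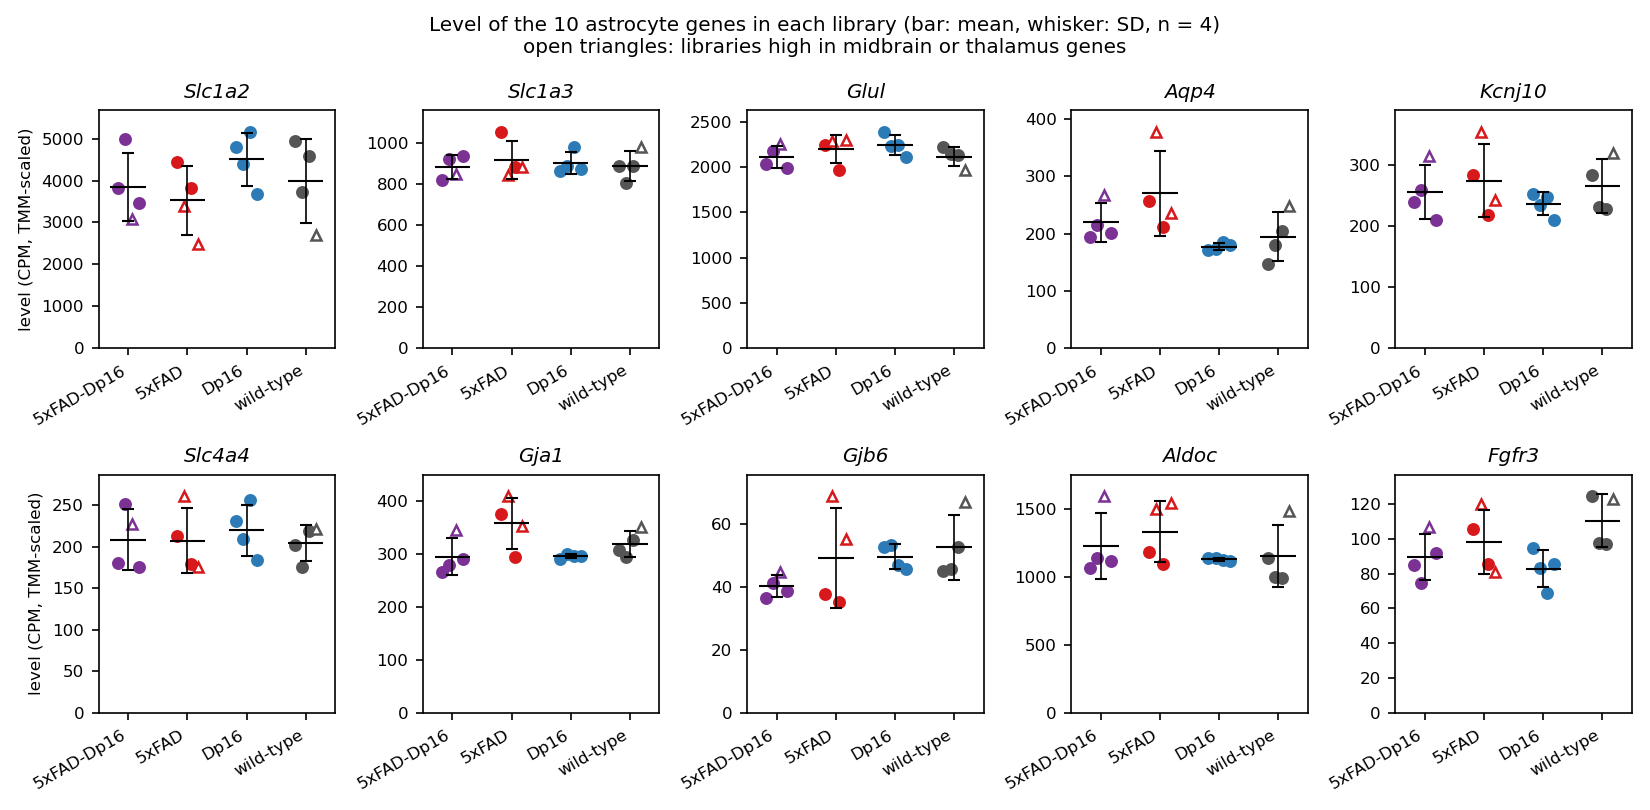
Level of each of the 10 genes (y axis, TMM-scaled CPM) in the 16 libraries by genotype (x axis), with 1 point per library, the mean as a bar and the SD as a whisker (n = 4). The 4 open triangles are the extrahippocampal-marker libraries. Glul and Slc1a3 were nearly level across genotypes, the 4 triangles were the lowest libraries of Slc1a2 and the highest of Aldoc, and Aqp4 ranged from 147 to 378 CPM.

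The first question was whether the genotypes changed the level of these genes. No member passed the threshold (edgeR's quasi-likelihood test, Benjamini-Hochberg adjusted p below 0.05 over 16684 genes) in any of the comparisons between genotypes. In 5xFAD-Dp16 against wild-type, where 1.01% of all tested genes were called, 0 of 10 members were called and 0 had an unadjusted p below 0.05, against 6.38% of all tested genes. In 5xFAD-Dp16 against Dp16 (0.845% of genes called) and in 5xFAD against wild-type (0.971% called) 0 members were called and 1 had an unadjusted p below 0.05, Aqp4 in both, against 8.57% of all tested genes with 5xFAD-Dp16 over Dp16 and 8.85% with 5xFAD over wild-type. In 5xFAD-Dp16 against 5xFAD (0.0539% called) 0 were called and 0 were below 0.05 unadjusted, against 3.28% of all tested genes. In Dp16 against wild-type (0.0839% called) 0 were called and 1, Fgfr3, was below 0.05 unadjusted, against 3.31% of all tested genes. With shares of called genes this low, 0 of 10 is close to what the background alone gives. DESeq2 also called 0 members in each of these 5 comparisons. The comparisons against wild-type share the 4 wild-type libraries.

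The average over both chromosome 16 states used all 8 libraries with the transgenes against the 8 without, and called 2.56% of genes. There edgeR again called 0 of 10 members, with 1 below 0.05 unadjusted (Aqp4), against 15.7% of all tested genes, and DESeq2 called 1. The median log2 fold change of the 10 members was 0.013, against 0.025 over all tested genes, and 6 members were positive. For the Dp16 duplication averaged over both transgene states (0.234% called), 0 members were called by either tool, 2 (Fgfr3 and Gja1) were below 0.05 unadjusted, against 4.6% of all tested genes, and the members' median was -0.067 against -0.0090 over all genes. For the interaction, the Dp16 difference with the transgenes minus that without, 0% of genes and 0 members were called by edgeR and by DESeq2, while 332 genes (1.99%) and 0 members had an unadjusted edgeR p below 0.05. The 95% intervals of the averaged transgene difference reached no lower than -0.54 and no higher than 0.70 on the log2 scale over the 10 members.

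In bulk tissue, fewer astrocytes and less RNA per astrocyte cannot be told apart, which applies to every level given here. Beside these values, other lists are given for the averaged transgene comparison. Of 12 microglia genes 11 rose in the averaged comparison with 0 falling, and they summed to 877 to 1519 CPM in the 8 carrier libraries against 477 to 550 CPM in the 8 others. Of 12 oligodendrocyte genes 1 rose and all 12 were positive, with sums of 5750 to 9701 CPM in carriers and 4598 to 6837 CPM in non-carriers. The 10 choroid plexus genes and the 6 ependyma genes were also all positive, with medians of 0.68 and 0.50 and 0 called. The choroid plexus median differed between the backgrounds. It was -0.0050 in 5xFAD against wild-type, with 5 of 10 positive, and 1.45 in 5xFAD-Dp16 against Dp16, with 10 of 10 positive. Choroid plexus sums overlapped widely, at 75.8 to 5713 CPM in carriers and 39.8 to 6580 CPM in non-carriers. The part of these lists in the members' values was not tested.

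The glutamate genes include the most abundant member, Glul. Slc1a2, the main glutamate transporter of the forebrain, was at 3812, 4985, 3093 and 3473 CPM in 5xFAD-Dp16 and at 4440, 3390, 3819 and 2482 CPM in 5xFAD. It was at 4798, 4405, 5158 and 3682 CPM in Dp16 and at 4937, 3726, 4585 and 2693 CPM in wild-type. The groups overlapped throughout, and the libraries at or below 3390 CPM in 5xFAD-Dp16, 5xFAD and wild-type were the 4 extrahippocampal-marker libraries. The averaged transgene difference was a log2 fold change of -0.23 ± 0.15 (SE; 0.855-fold, edgeR adjusted p = 0.455), and 7 of 8 carriers were below the median of the non-carriers. Without the 4 libraries it was -0.12 ± 0.11 (adjusted p = 0.633), and in males alone -0.46 ± 0.17 (adjusted p = 0.147). The extrahippocampal-marker libraries among males, 5xFAD-Dp16 replicate 3 and 5xFAD replicate 4, were all transgene carriers. Their part in the males-only value was not tested. Over 26 alternatives the averaged transgene difference ranged from -0.46 to -0.04, and none passed.

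Slc1a3, the second astrocyte glutamate transporter, averaged 882 ± 57.3 CPM in 5xFAD-Dp16, 916 ± 93.4 CPM in 5xFAD, 901 ± 54.3 CPM in Dp16 and 889 ± 72.5 CPM in wild-type (SD, n = 4 each). Glul averaged 2110 ± 121 CPM in 5xFAD-Dp16, 2197 ± 159 CPM in 5xFAD, 2242 ± 114 CPM in Dp16 and 2113 ± 105 CPM in wild-type. For both genes the groups overlapped in all of the pairwise comparisons. The averaged transgene difference was 0.01 ± 0.074 for Slc1a3 (adjusted p = 0.971) and -0.02 ± 0.068 for Glul (adjusted p = 0.924), on the log2 scale. The wider glutamate and glutamine cycle list had 16 tested genes, of which 0 were called in the averaged comparison, with a median of -0.022. Its smallest p belonged to Gpt2, an alanine aminotransferase (log2 -0.16, adjusted p = 0.256).

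Aqp4 was the member whose transgene difference had the smallest p. It was at 194, 216, 268 and 201 CPM in 5xFAD-Dp16 and at 257, 378, 211 and 236 CPM in 5xFAD. It was at 172, 173, 186 and 180 CPM in Dp16 and at 147, 181, 204 and 249 CPM in wild-type. All 8 carriers of the transgenes were above the median of the 8 non-carriers, and 5xFAD-Dp16 did not overlap with Dp16, while 5xFAD overlapped with wild-type through the wild-type library at 249 CPM. The averaged difference was a log2 fold change of 0.45 ± 0.12 (SE; 1.36-fold), with an edgeR adjusted p = 0.0601, so it missed the threshold. The pairwise values were 0.46 for 5xFAD against wild-type (adjusted p = 0.342) and 0.43 for 5xFAD-Dp16 against Dp16 (adjusted p = 0.483), and the interaction was -0.03 ± 0.24. Of all tested genes, 3.71% were higher in 5xFAD-Dp16 than in Dp16 without overlap.

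The call of Aqp4 depended on the processing. It passed, with a difference of 0.43 and adjusted p = 0.0130, in DESeq2 (where 4.15% of genes were called), and with 0.45 and adjusted p = 0.000125 without a filter on low counts in edgeR (4.16% called). Without that filter 5xFAD against wild-type also passed, at 0.47 and adjusted p = 0.0252 (1.29% called). It passed with a replicate block at 0.47 and adjusted p = 0.0258 (2.88% called), although the replicate numbers did not pair the libraries. Without wild-type replicate 4 it passed at 0.48 and adjusted p = 0.0285 (3.07% called). Without the 4 extrahippocampal-marker libraries the averaged difference was smaller, 0.32 ± 0.078 (1.25-fold), and passed in edgeR with adjusted p = 0.0376 (2.85% called). With the midbrain and thalamus scores as covariates it was 0.30 ± 0.076, adjusted p = 0.0462 (2.65% called). In the 12 other libraries Aqp4 stood at 194 to 257 CPM in 5 carriers and 147 to 204 CPM in 7 non-carriers. Over all 26 alternatives the difference stayed positive, between 0.29 and 0.50, and 6 of them passed, with adjusted p from 0.000125 to 0.172.

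The 22 other tested genes of perivascular endfeet and potassium buffering had 0 calls in the averaged transgene comparison and a median of -0.021. In 5xFAD-Dp16 against wild-type 1 gene of this list fell, Kcnk2, which encodes the potassium channel TREK-1 (log2 -0.42 ± 0.094, adjusted p = 0.0442 in edgeR). Kcnj10 averaged 255 ± 43.8 CPM in 5xFAD-Dp16, 274 ± 59.5 CPM in 5xFAD, 237 ± 19.1 CPM in Dp16 and 265 ± 44.1 CPM in wild-type. The averaged transgene difference of Kcnj10 was 0.12 ± 0.11 (adjusted p = 0.603). Slc4a4 averaged 209 ± 37.1 CPM in 5xFAD-Dp16, 207 ± 39.5 CPM in 5xFAD, 220 ± 30.8 CPM in Dp16 and 204 ± 21.3 CPM in wild-type, and its averaged difference was -0.02 ± 0.11 (adjusted p = 0.947). For both genes the groups overlapped in all 5 pairwise comparisons. The 11 genes of bicarbonate and acid-base handling had 0 calls in that comparison.

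The 2 astrocyte connexins differed in their values. Gjb6 was at 36.5, 41.5, 44.7 and 38.7 CPM in 5xFAD-Dp16 and at 37.8, 69.0, 35.3 and 55.5 CPM in 5xFAD. It was at 52.8, 53.6, 47.0 and 45.7 CPM in Dp16 and at 45.1, 45.7, 52.7 and 67.3 CPM in wild-type. The 5xFAD-Dp16 libraries were all below the Dp16 and the wild-type libraries, while 5xFAD held the single highest and the single lowest library. In edgeR the averaged difference was -0.17 ± 0.13 (0.892-fold, adjusted p = 0.534). 5xFAD-Dp16 against wild-type gave -0.31 ± 0.20 (adjusted p = 1.00), and 1.29% of all tested genes were lower there without overlap. 5xFAD-Dp16 against Dp16 gave -0.24 ± 0.19 (adjusted p = 0.726), and 2.05% of all tested genes were lower there without overlap.

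Without the 4 extrahippocampal-marker libraries, which include the 2 high 5xFAD libraries and the wild-type library at 67.3 CPM, Gjb6 was lower in carriers. It stood at 35.3 to 41.5 CPM in 5 carriers and at 45.1 to 53.6 CPM in 7 non-carriers, with no overlap. The log2 fold change was -0.36 ± 0.070 (0.777-fold), with adjusted p = 0.00756 in edgeR over 17187 genes (2.85% called). With the midbrain and thalamus scores as covariates in all 16 libraries it was -0.38 ± 0.084 (adjusted p = 0.0191, 2.65% called). Of the 16684 genes tested over all libraries, 0.33% were lower in carriers of the 12 libraries without overlap. Both alternatives were added after the data were seen. They were the only 2 of 26 alternatives in which Gjb6 passed, and the averaged difference ranged from -0.38 to -0.08. It did not pass without the 3 libraries high in midbrain genes or with the midbrain score alone, where 0 members were called. Among the 4 libraries themselves, Gjb6 was at 44.7 to 69.0 CPM in the 3 carriers and at 67.3 CPM in the 1 non-carrier. In males alone, where the extrahippocampal-marker libraries were all carriers, the averaged difference was -0.23 ± 0.12 (adjusted p = 0.235).

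Gja1, the more abundant astrocyte connexin, was at 267, 279, 345 and 290 CPM in 5xFAD-Dp16 and at 376, 409, 295 and 353 CPM in 5xFAD. It was at 290, 300, 297 and 297 CPM in Dp16 and at 307, 295, 327 and 350 CPM in wild-type. 5xFAD reached the highest values and Dp16 was within a narrow band inside the range of 5xFAD-Dp16. The averaged transgene difference was 0.10 ± 0.078 (adjusted p = 0.521), and without the 4 libraries it was 0.03 ± 0.065 (adjusted p = 0.865).

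The ratio of Gja1 to Gjb6 in RPKM is given as a description with no test, since it was chosen after the values were seen. It averaged 4.57 ± 0.266 in 5xFAD-Dp16, 4.78 ± 1.16 in 5xFAD, 3.73 ± 0.315 in Dp16, and 3.85 ± 0.428 for wild-type (n = 4 each, with SD). The mean log2 ratio was 2.21 in the 8 carriers and 1.92 in the 8 non-carriers, a difference of 0.29. Without the 4 libraries the ratio was 4.20 to 6.22 in 5 carriers and 3.43 to 4.25 in 7 non-carriers. The 2 5xFAD libraries of the 4 had the lowest ratios among carriers. The list of 11 genes, mostly connexins and pannexins, had 0 calls in the averaged comparison. Its smallest p was that of the oligodendrocyte connexin Gjb1 (log2 0.66, adjusted p = 0.0778), which stood beside the oligodendrocyte sums given above.

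**Figure D2:**
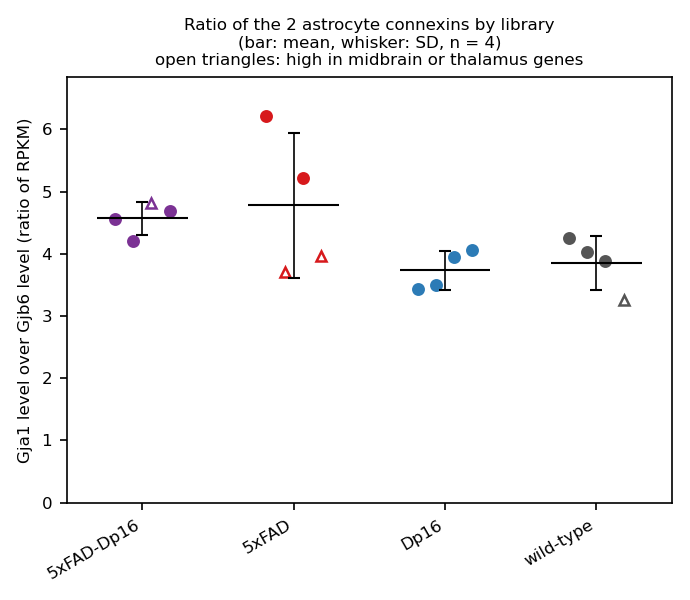
Ratio of the Gja1 level to the Gjb6 level in RPKM (y axis) in each library by genotype (x axis), with the mean as a bar and the SD as a whisker (n = 4) and the 4 extrahippocampal-marker libraries as open triangles. The 5xFAD-Dp16 libraries lie between 4.20 and 4.82 and the Dp16 libraries between 3.43 and 4.06, while the 5xFAD libraries spread from 3.71 to 6.22.

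**Figure D3:**
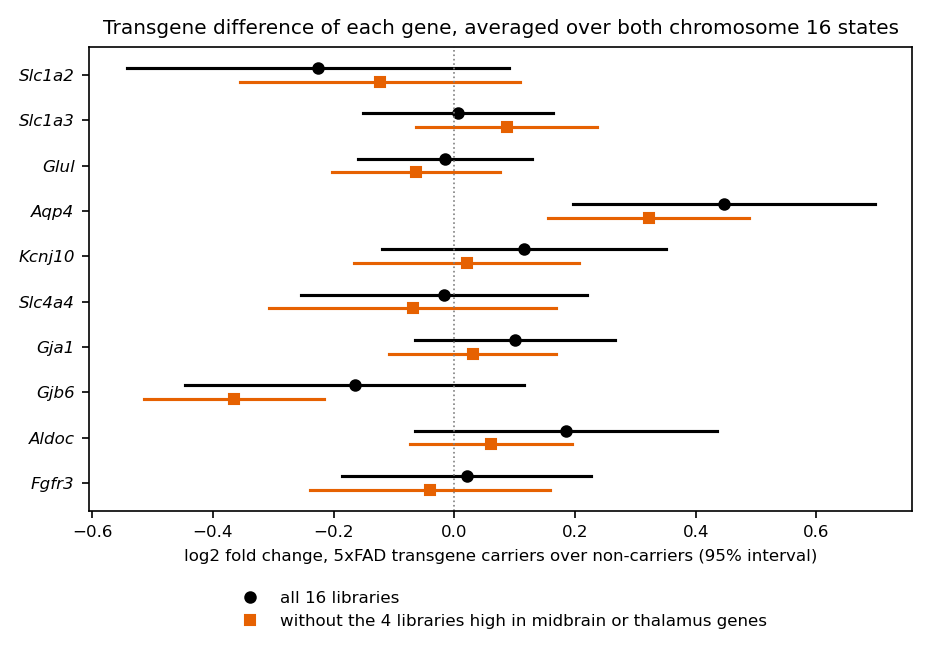
Log2 fold change of each gene (y axis) in transgene carriers over non-carriers, averaged over both chromosome 16 states (x axis, with 95% intervals), from all 16 libraries in black and from the 12 other libraries in orange. The interval of Aqp4 lies above 0 in both, and that of Gjb6 lies below 0 without the 4 libraries and spans 0 with them.

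Aldoc, the astrocyte aldolase, was at 1067, 1139, 1594 and 1119 CPM in 5xFAD-Dp16 and at 1183, 1503, 1098 and 1546 CPM in 5xFAD. It was at 1138, 1141, 1126 and 1115 CPM in Dp16 and at 1141, 999, 991 and 1485 CPM in wild-type. The 12 other libraries lay between 991 and 1183 CPM, and the 4 extrahippocampal-marker libraries between 1485 and 1594 CPM. The averaged transgene difference was 0.19 ± 0.12 (adjusted p = 0.441), and without the 4 libraries it was 0.06 ± 0.063 (adjusted p = 0.694). The 21 tested genes of glycolysis and lactate had 0 calls in this comparison and a median of -0.069. The smallest p in that list belonged to Slc2a1, which encodes the glucose transporter of the blood-brain barrier and of astrocytes (log2 -0.38, adjusted p = 0.0617).

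Slc1a2 and Aldoc separated the same 4 libraries in opposite directions. The 4 extrahippocampal-marker libraries were the 4 lowest for Slc1a2, at 2482 to 3390 CPM against 3473 to 5158 CPM in the other 12, and the 4 highest for Aldoc. This held within each genotype that contained such a library. Slc1a2 in these libraries was 0.756 times the mean of the others in 5xFAD-Dp16, 0.711 times in 5xFAD and 0.610 times in wild-type. The same ratio for Aldoc was 1.44 in 5xFAD-Dp16, 1.34 in 5xFAD and 1.42 in wild-type. Aqp4, Gja1, Gjb6, Kcnj10, Glul and Fgfr3 each had 3 of the 4 libraries among their 4 highest. Slc1a3 had 1 of them among its 4 highest and 2 among its 4 lowest, and Slc4a4 had 1 in each. Glul and Fgfr3 also had 1 of them each among their 4 lowest. The 12 oligodendrocyte genes summed to 6837 to 9701 CPM in the 4 libraries and 4598 to 6394 CPM in the other 12, and the 30 other astrocyte identity genes to 9283 to 11454 CPM in the 4 and 8259 to 9614 CPM in the other 12. Their part in the levels of Slc1a2 and Aldoc was not tested.

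**Figure D4:**
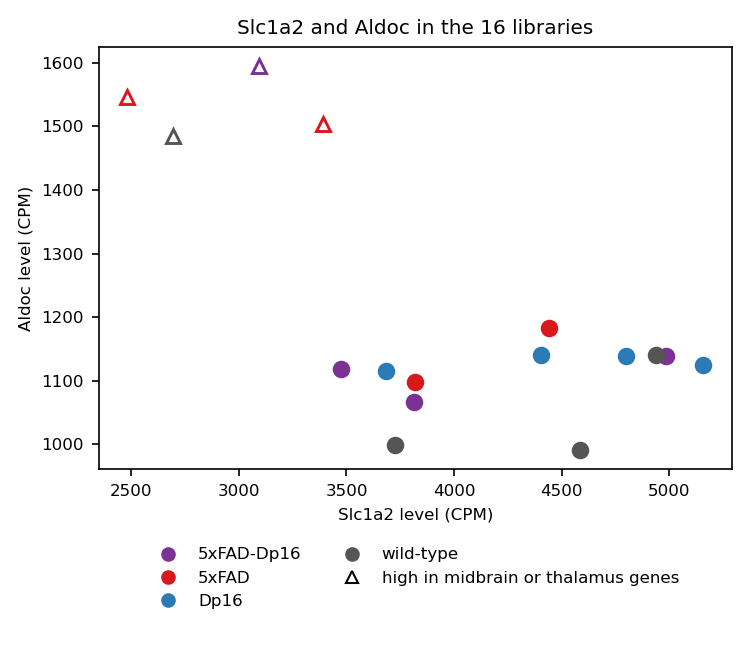
Aldoc level (y axis, CPM) against Slc1a2 level (x axis, CPM) in the 16 libraries, coloured by genotype, with the 4 extrahippocampal-marker libraries as open triangles; neither axis starts at 0. The triangles form a separate cluster at low Slc1a2 and high Aldoc, and within the other 12 libraries Aldoc stays between 991 and 1183 CPM.

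Fgfr3 was the member with the largest difference between Dp16 and wild-type. It was at 94.8, 83.1, 68.7 and 85.3 CPM in Dp16 and at 125, 97.7, 96.9 and 123 CPM in wild-type, with no overlap. It was at 84.8, 74.9, 107 and 92.0 CPM in 5xFAD-Dp16, and at 106, 120, 85.5 and 81.2 CPM in 5xFAD, and these groups overlapped. Dp16 against wild-type gave a log2 fold change of -0.42 ± 0.13 (SE; 0.746-fold) with an edgeR adjusted p = 0.990. Of all tested genes, 1.55% were lower in Dp16 without overlap. Over the alternatives this difference ranged from -0.53 to -0.30 and 0 of 26 passed. Averaged over both transgene states the Dp16 difference was -0.21 ± 0.098 (adjusted p = 0.949), and the interaction was 0.42 ± 0.20 (adjusted p = 1.00). The 17 tested genes of the FGF signalling list had 0 calls in Dp16 against wild-type, and the target gene Etv4 had the smallest p there (log2 -0.48, adjusted p = 0.990).

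Gja1 was the other member with an unadjusted p below 0.05 for the duplication. Averaged over both transgene states its Dp16 difference was -0.17 ± 0.079 (adjusted p = 0.949). 5xFAD-Dp16 against 5xFAD gave -0.23 ± 0.12 (adjusted p = 1.00). For Gja1 7 of 8 Dp16-carrying libraries were below the median of those without the duplication. The same 7 of 8 held for Aqp4, Aldoc, Kcnj10 and Fgfr3, and the share over all tested genes was not computed. It did not hold for all 5 genes without the 4 extrahippocampal-marker libraries. Of the 7 duplication carriers left, 7 were below the median of the 5 others for Gja1 and Fgfr3, and 6 for Aqp4. For Aldoc 6 of these 7 were above that median, and for Kcnj10 5 of 7. Of the 4 extrahippocampal-marker libraries 3 lacked the duplication. Without the 4 the averaged Dp16 difference of Gja1 was -0.16 ± 0.066 (edgeR adjusted p = 0.844).

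By sex, 0 of 10 members were called in females against males, where 0.048% of genes were called, and 0 had an unadjusted p below 0.05 in edgeR, against 5.84% of all tested genes; DESeq2 also called 0. Of the 10 members 9 were higher in females, against 49.4% of all tested genes. The members' median log2 difference was 0.085, against -0.0021 over all genes. The largest were Aqp4 at 0.26 ± 0.13 (adjusted p = 0.863) and Fgfr3 at 0.23 ± 0.11 (adjusted p = 0.853). Over 24 alternatives Aqp4 ranged from 0.07 to 0.38 and Fgfr3 from 0.12 to 0.30, and none passed. The 6 females came from 5xFAD, Dp16 and wild-type, and 2 of them, 5xFAD replicate 2 and wild-type replicate 4, were extrahippocampal-marker libraries.

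As a set the members did not vary as 1 unit. Over the 16 libraries, which share their genotype groups and the 4 libraries named above, the 45 pairs of members had a median Pearson correlation of 0.336 in log2 CPM, and 10 pairs were negative. The highest was Aqp4 with Gja1 (r = 0.79) and the lowest Slc1a2 with Aldoc (r = -0.70). Against the mean of all 10 members, each standardised, Kcnj10 had r = 0.89 and Gja1 0.84, while Slc1a3 had 0.33 and Slc1a2 -0.12. Each member is part of that mean, which raises its own r, so these values are not comparable with those of non-members. The non-members most like that mean were Cep120 (r = 0.89), Nacc2 (r = 0.88), Peg3 (r = 0.86), Sparcl1 and Bcl2 (both r = 0.85), Serpine2 and Gprc5b. Cplane2 completed the 8 (r = 0.82).

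Other astrocyte genes were set beside the members in the averaged transgene comparison, over all 16 libraries only. It called 2.56% of all tested genes, 407 higher and 20 lower. Of 26 tested genes of a reactive astrocyte list, 9 rose and 0 fell, with a median of 0.20. Gfap, the intermediate filament of reactive astrocytes, rose 2.57-fold (log2 1.36 ± 0.10, edgeR adjusted p = 5.38e-07), to 1049 ± 159 CPM in 5xFAD-Dp16 and 1176 ± 279 CPM in 5xFAD, against 460 ± 34.9 CPM in Dp16 and 433 ± 35.4 CPM in wild-type. H2-D1 and C4b, an MHC class I gene and a complement gene that other cells express too, rose 1.95-fold and 2.51-fold, and both belong to families with near-identical copies. Of the 30 other astrocyte identity genes, 1 rose and 2 fell, with a median of 0.034. Slc14a1, a urea transporter, rose 1.45-fold (adjusted p = 0.00959). Fjx1, a secreted protein of planar cell polarity, fell to 0.787-fold (adjusted p = 0.0432), and Dio2, the enzyme that activates thyroid hormone, fell to 0.761-fold (adjusted p = 0.0483). For Dio2, 5xFAD-Dp16 against Dp16 gave a log2 fold change of -0.65 (edgeR adjusted p = 0.0515). Dp16 against wild-type gave 0.41 for Dio2 (edgeR adjusted p = 0.990), and its interaction was -0.51 ± 0.20, not called. In the same comparison the 10 homeostatic members had 0 calls and a median of 0.013.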

How the data were processed

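The authors deposited raw read counts per gene and RPKM values for 16 libraries. Per the submitters' processing notes, the tools were bcl2fastq, FastQC 0.11.5, HISAT2 2.1.0, SAMtools 1.5 and HTSeq 0.6.1 with build GRCm38. Whether strand was used in counting is not given here by any source, and reads of a gene and its antisense partner may be mixed. The deposited RPKM values were a rescaling of the deposited counts by 1 length per gene (27505 of 27505 genes within a relative tolerance of 1e-06) and were used to compare levels between genes. Gene positions came from the GENCODE annotation of GRCm38.

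Counts were analysed with edgeR 4.0.16 (limma 3.58.1) in R 4.3.3: the default low-count filter by group kept 16684 of 55385 genes, libraries were scaled by TMM, and a robust quasi-likelihood model with terms for genotype and sex was fitted over all 16 libraries. P-values were Benjamini-Hochberg adjusted over all tested genes, with a threshold of 0.05. 5xFAD-Dp16 had no females, so its comparisons assume the sex difference of the other genotypes. Scores of gene lists were means of log2 CPM (prior count 2) after centring each gene on its median. DESeq2 1.42.0 was an alternative. The steps were tested on simulated data. No 2 libraries of a group agreed within sampling noise (chi-square per degree of freedom 8.34 to 97.5).

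The members and all lists were chosen with earlier results of these data known. The text names all 10 members, up to 3 genes with the smallest p of each list it describes, and the 8 other genes most correlated with the members' mean. Thy1, App, Sox9, Aldh1l1 and G630022F23Rik are context genes chosen apart from that rule. Some results are not reported here.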

Additional observations from a re-analysis of the deposited data

Results flagged for a closer look

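Among 40 sets of 4 libraries (10 genes in 4 genotypes), 2 held a library that stood far from the other 3 for its set; chance gives about 1 in 20 such sets. Aldoc in 5xFAD-Dp16 replicate 3 was at 1594.31 CPM, with the other 3 libraries at 1067 to 1139 CPM, so that the gap to its neighbour was 0.863 of the whole range. This library is 1 of the 4 high in midbrain or thalamus genes. Glul in 5xFAD replicate 3 was at 1960.9 CPM, below the other 3 at 2242 to 2297 CPM, with a gap of 0.838 of the range. This library is not 1 of those 4.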

How the results depend on the processing

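The number of members called was 0 in every comparison over all libraries, and 0 under each alternative apart from those named here. In the averaged transgene comparison it was 1 with DESeq2, 1 without a low-count filter, 1 with the replicate block, 2 without the 4 libraries high in midbrain or thalamus genes and 2 with both scores as covariates; leaving out 1 library at a time gave 0 to 1, with 1 only without wild-type replicate 4. In 5xFAD against wild-type it was 1 without a low-count filter. The replicate numbers did not pair the libraries (mean correlation of same-numbered deviations 0.0178, lowest -0.354). Gjb6 in 5xFAD against wild-type changed sign when single libraries were left out, with values from -0.29 to 0.04, and was positive without wild-type replicate 4 (0.0361), 5xFAD replicate 1 (0.0365) or 5xFAD replicate 3 (0.0314). Gja1 in the averaged comparison was -0.00824 in males alone. The averaged Aqp4 difference stayed positive when each library was left out, at 0.34 to 0.50, with adjusted p up to 0.172 without wild-type replicate 1. It did not pass without the 3 libraries high in midbrain genes or with the midbrain score alone. The averaged Gjb6 difference ranged from -0.29 to -0.08 when single libraries were left out. Among all 90 member values, 20 changed sign without the 4 libraries and 24 of 80 in males alone, none of them called on either side. The cause of these changes was not tested. The 4-library and covariate alternatives were chosen after seeing the data.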
